A study of Homo sapiens with 6 samples.

Results

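The genes described here carry secretory proteins into the endoplasmic reticulum (ER) and out of it again, in MM.1S, a line of multiple myeloma cells of human origin. The list named 42 genes: 8 of signal recognition, 11 of the translocon and its partners, 5 of signal peptidase, 12 of COPII export and 6 cargo or retrieval receptors. They were taken by symbol from the platform annotation, and each gene was read from its brightest probe set with a single symbol. Of the 42, 38 had such a probe set, and all 38 passed the intensity filter, among 6838 genes tested in all. SRP68, SEC61G, SEC11C and KDELR2 were not analysed here. The study treated the line with enzastaurin, which blocks protein kinase C beta, and read RNA after 3, 6 and 12 h, with untreated cells at each time. Each of these 6 conditions has 1 array, and all come from the same cell line. The labels call the controls untreated, and give no vehicle and no dose. Separate cultures are not stated for the arrays, so the p-values cover only how these 6 arrays vary, and that variation may be technical.

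Proteins bound for secretion begin with a signal peptide that the signal recognition particle binds as the ribosome makes it. The particle docks at its receptor on the ER, and the chain passes through the Sec61 channel while signal peptidase removes the signal. Folded cargo then leaves in vesicles coated with COPII, in which the GTPase SAR1 recruits an inner coat of SEC23 and SEC24 and an outer coat of SEC13 and SEC31. Plasma cells, from which myeloma arises, are known for a large ER and for secreting antibody, and the transcription factor XBP1 is known to drive many genes of this machinery.

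Intensities are the MAS5 values of the deposited table on a linear scale, always given in the order 3, 6 and 12 h. Ratios are log2 ratios of enzastaurin over untreated cells at the same time. A single time has no replicate, so no error or test is given for it. The arrays had median intensities from 62.2 to 67.6. Mean log2 intensity of the ribosomal RNA probe sets was 3.39, 11.98 and 9.29 without the drug and 9.99, 3.79 and 3.02 with enzastaurin. Actin (ACTB) probe sets of the 3' end exceeded those of the 5' end least on the 6 h and 12 h enzastaurin arrays, by 0.57 and 0.86 log2 units, against 1.16 or more on the others. All 8 plasma cell markers passed the filter, with summed intensities of 16759 to 21522 in untreated cells and 12823 to 16774 with enzastaurin; the part of these differences in the results was not tested. None of the 8 T and NK cell and 8 monocyte markers passed it, and LYZ, a monocyte marker, read 0 on 1 array. Of the stromal markers 2 of 6 passed, and HBB alone of the 3 erythroid markers measured. Summed intensities were 226 to 256 and 241 to 275 for T and NK cells, in untreated and enzastaurin cells, and 134 to 218 and 172 to 217 for monocytes. Stromal sums were 264 to 363 and 283 to 345, and erythroid sums 313 to 486 and 219 to 472.

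Enzastaurin arrays read higher for most genes of this machinery at 6 h and lower at 12 h as the authors scaled them, while the ribosome receptor RRBP1 was the 1 gene of 38 that fell by the test, over both times. In the fit over all 3 times RRBP1 did not pass. In bulk RNA, fewer cells that express a gene and less RNA per cell cannot be told apart. At 3 h, 21 of the 38 had a ratio above 0, where 46.4 percent of all genes tested did, and the median ratio was 0.047, against -0.038 over all genes. At 6 h, 29 of 38 were above 0 (54.4 percent of all genes), with a median of 0.31 against 0.057. At 12 h, 31 of 38 were below 0 (61.1 percent of all genes), with a median of -0.26 against -0.18. In 22 of 38 the ratio was above 0 at 6 h and below 0 at 12 h, which held for 27.3 percent of all genes. These counts were not tested, since each time has 1 array on each side.

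The direction at 12 h rested in part on how the arrays were scaled. With quantile normalization 18 members were above 0 at 12 h, and with equal medians of the kept genes 17, in place of 7. These scalings put the median of all genes at 12 h at -0.033 and 0.018, from -0.18. Relative to all genes, the members' median was -0.084 at 12 h, and -0.025 with quantile normalization. Under all 4 scalings 20 members were below 0 at 12 h, 4 (SEC22B, LMAN1, MCFD2 and KDELR1) were above 0, and 28 were above 0 at 6 h. The ratio was higher at 6 h than at 12 h in 35 of 38 members, where 64.5 percent of all genes were so, and in 30 with equal medians of the kept genes, where 49.8 percent of all genes were. As the authors scaled the arrays, it was higher at 6 h in 69.9 percent of genes in the upper 25 percent of intensity. The median step was -0.54 log2 units in the members and -0.22 in all genes, a difference of -0.32 that was between this and -0.30 under the other scalings. Ribosomal RNA and the ACTB 3' to 5' difference were lower with enzastaurin at both 6 h and 12 h, and their part in these counts was not tested.

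Set against the whole span of the untreated arrays, the 6 h enzastaurin array lay above all 3 of them in 21 of 38 members (27.3 percent of all genes) and below all 3 in 4 (26.3 percent). The 12 h enzastaurin array lay below all 3 in 24 members (38.3 percent) and above in 4 (24.0 percent). In genes of the upper 25 percent of intensity it lay below all 3 in 44.5 percent. The count of members below depended on scaling: it was 17 (32.2 percent of all genes) with quantile normalization and 18 (30.1 percent) with equal medians of the kept genes. At 3 h these counts were 7 above (17.5 percent) and 6 below (25.5 percent). The spread over the 3 enzastaurin arrays was wider than that over the untreated arrays in 31 of 38 members, against 56.1 percent of all genes. The median log2 range of a member was 0.38 over untreated and 0.58 over enzastaurin arrays. Only in SRP9 were the 3 enzastaurin arrays all below the 3 untreated ones (7.18 percent of all genes), and in no member were they all above (3.47 percent).

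Changes of 2-fold or more were few. At 3 h SSR4 was at least 2-fold higher (1.89 percent of all genes) and SEC22B at least 2-fold lower (2.65 percent). At 6 h SEC22B and SEC31A were higher (5.60 percent) and RRBP1 lower (3.22 percent). At 12 h RRBP1, SEC61A1, SEC24D and SAR1B were lower (10.4 percent), and 0 of 38 members were 2-fold higher (3.88 percent). The share of members past 2-fold was thus close to that of all genes.

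**Figure D1:**
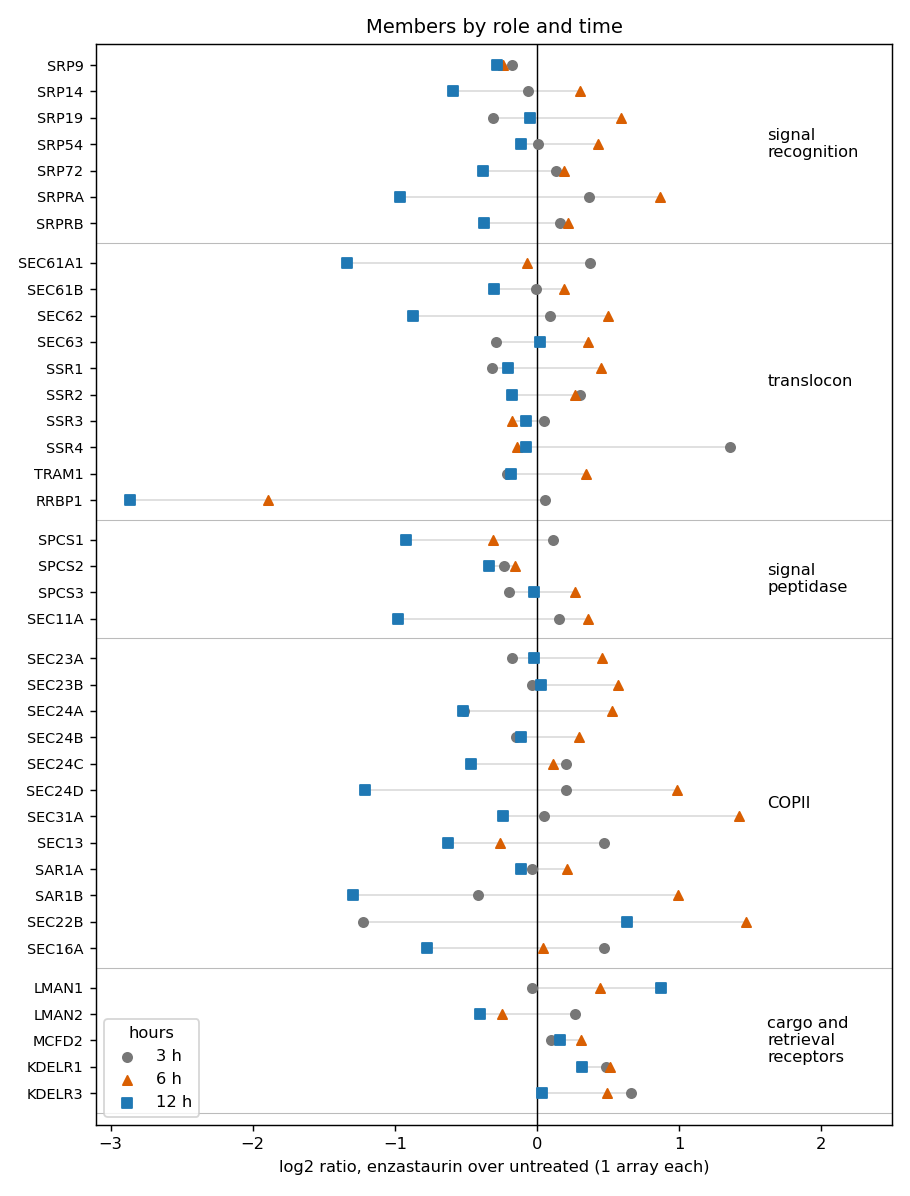
Log2 ratio of enzastaurin over untreated cells (horizontal axis) for the 38 measured genes, grouped by role, with a grey circle for 3 h, an orange triangle for 6 h and a blue square for 12 h; each mark compares 1 array with 1 array. Most triangles lie to the right of 0 and most squares to the left, RRBP1 stands apart at -1.90 and -2.86, and LMAN1 and SEC22B have the squares farthest to the right.

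In a fit over all 3 times with the time point as a block, 0 of 38 members passed an adjusted p of 0.05 in limma, and 1 (RRBP1) had an unadjusted p under 0.05. The fit called 4 genes in all, 0.0585 percent. When the pairs of 6 h and 12 h were fitted without 3 h, 1 of 38 members passed, RRBP1, where 3.61 percent of all genes passed and 2.08 percent were called lower. The 3 h pair was left out because earlier results of these data showed it going a different way from the later pairs. The p-values of the fit of 2 pairs do not allow for that choice. In the fit of a slope of the effect per doubling of hours RRBP1 passed too, downward, where 1.43 percent of all genes passed and 0.921 percent had a downward call. The share of members called was near the background in the fit of 2 pairs and in the slope. The fit of 2 pairs has 1 residual degree of freedom, so its error rests mostly on the spread of other genes, and the slope's error comes from that prior alone.

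RRBP1 encodes a ribosome-binding protein of the rough ER membrane, also known as p180. It had intensities of 670.0, 1156 and 964 without enzastaurin and 697, 311 and 133 with it. The groups overlapped at 3 h, where the treated value lay between untreated ones, and were far apart at 6 h and 12 h. RRBP1 was 3.72-fold lower at 6 h and 7.27-fold lower at 12 h. Over these 2 pairs it fell 5.20-fold (mean log2 ratio -2.38, moderated SE 0.33, n = 2 pairs, limma adjusted p = 0.000464). Over all 3 times the mean log2 ratio was -1.57 (SE 0.46, n = 3 pairs, limma adjusted p = 0.489). The slope was -1.46 per doubling of hours (SE 0.36, limma adjusted p = 0.00971). The slope missed the threshold with quantile normalization, with equal medians of the kept genes and with the median over probe sets (limma adjusted p = 0.0999, 0.303 and 0.381). After adding ribosomal RNA as a covariate, RRBP1 passed in the fit over 3 times (-1.13, SE 0.30, limma adjusted p = 0.0236), with a smaller effect than the -1.57 without it. The error of the covariate fit came from the prior alone, and that fit called more genes in all than the one without the covariate. Ribosomal RNA was lower with enzastaurin in both later pairs and higher in the 3 h pair, and its part in the 6 h and 12 h values was not tested.

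RRBP1 had 6 probe sets with this symbol alone, and they did not all give the same picture. The next in intensity went from 1713 to 265 at 6 h and from 602 to 82.6 at 12 h, log2 ratios of 0.71, -2.69 and -2.86. Its untreated arrays read 396, 1713 and 602, so its 6 h control was high. The fourth and the fifth had ratios of -0.038, -2.28 and -2.13 and of 0.024, -1.52 and -1.02, and the sixth 0.34, -0.26 and -1.54. In the fourth and the fifth the untreated value was also highest at 6 h, at 238 and 109. The fifth and the sixth were below the intensity filter, with geometric means of 55.7 and 55.5. The third differed, with ratios of -0.57, -0.077 and 0.23 and intensities between 138 and 211 on the 6 arrays. With the median over the probe sets above the filter, RRBP1 at 6 h and 12 h had a mean log2 ratio of -1.40 (limma adjusted p = 0.00531).

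**Figure D2:**
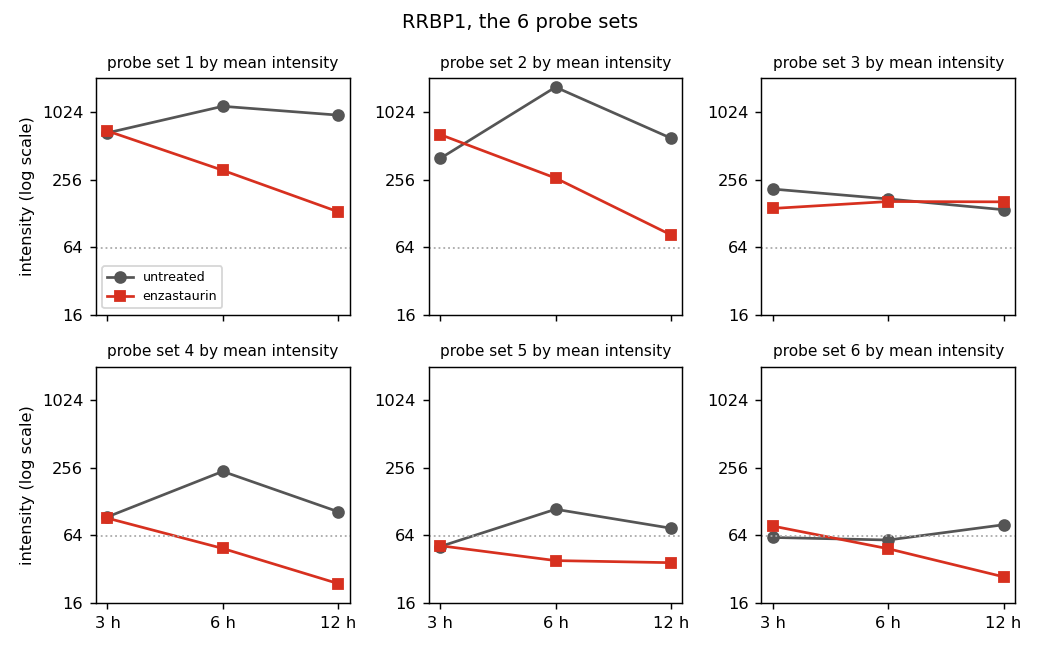
Intensity (vertical axis, log scale) of the 6 RRBP1 probe sets at 3, 6 and 12 h, ordered by mean intensity, with untreated cells as grey circles and enzastaurin cells as red squares, 1 array each; the dotted line is the intensity filter at 63.3. By 12 h the red line is below the grey one in the probe sets ranked 1, 2, 4, 5 and 6, and the lines stay close in the one ranked 3.

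The promoter of RRBP1 is shown because it is the one gene of the list that passed a test. RefSeq places 1 start for it in the window table, on the minus strand, and the 250 bases before that start (chr20:17682243-17682492, GRCh38.p14) read as follows, 5′ to 3′ on the gene's strand. Capitals mark 3 CCAAT boxes, of which the one 199 bases before the start lies on the opposite strand.
RRBP1: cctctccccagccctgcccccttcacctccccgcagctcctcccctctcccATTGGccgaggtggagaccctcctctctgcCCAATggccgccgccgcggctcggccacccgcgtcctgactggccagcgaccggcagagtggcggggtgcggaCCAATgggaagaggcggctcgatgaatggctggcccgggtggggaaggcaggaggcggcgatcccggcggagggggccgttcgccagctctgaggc
A CCAAT box was found, on either strand, in the windows of 45.2 percent of the tested genes that have a window, so its presence is common.

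In signal recognition, 0 of 7 measured genes passed a test, and the median ratios were 0.0078, 0.30 and -0.37, with a 12 h median of -0.18 after quantile normalization. At 6 h 6 of 7 were above 0 and at 12 h 7 of 7 were below. SRP9 and SRP14 form the part of the particle that pauses translation. SRP9 had intensities of 4298, 4542 and 3997 without enzastaurin and 3799, 3853 and 3293 with it. Its treated arrays lay below every untreated one, with small ratios of -0.18, -0.24 and -0.28 (mean -0.23, SE 0.15, n = 3 pairs, limma adjusted p = 0.98). SRP14 had ratios of -0.063, 0.30 and -0.59, so that these partners parted at 6 h. SRP54, the GTPase that holds the signal peptide, had ratios of 0.0078, 0.43 and -0.11, and its treated array was above every untreated array at 6 h and below every one at 12 h. SRP19, which helps SRP54 join the particle's RNA, had -0.31, 0.59 and -0.048 and SRP72, a core subunit, 0.13, 0.19 and -0.38.

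The receptor of the particle has an alpha chain, SRPRA, and a membrane-spanning beta chain, SRPRB. SRPRA had intensities of 1681, 1100.0 and 1775 without enzastaurin and 2163, 2001 and 909 with it. It was above all untreated arrays at 3 h and 6 h and below all of them at 12 h, with ratios of 0.36, 0.86 and -0.96. A dimmer SRPRA probe set had ratios of 1.06, 0.36 and 0.65, so the lower value at 12 h was not seen in it. SRPRB had ratios of 0.16, 0.22 and -0.37, in the same order as its partner and smaller.

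Of the translocon genes, 10 were measured and RRBP1 alone passed a test, in the fit of 2 pairs and in the slope. The median ratios were 0.052, 0.23 and -0.19, and the 12 h median turned to 0.04 with quantile normalization. SEC61A1, the pore of the channel, had intensities of 1270.0, 1376 and 1616 without enzastaurin and 1648, 1310.2 and 640.3 with it. Its 12 h enzastaurin array stood well below the other 5 arrays, and the treated values at 3 h and 6 h were among or just above the untreated ones. It was 2.52-fold lower at 12 h, and its slope of -0.86 (SE 0.30) had a limma adjusted p = 0.135, which was 0.0424 once all probe sets had equal medians on each array. SEC61B, the small beta subunit of the same channel, had ratios of -0.0093, 0.19 and -0.30.

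SEC62 and SEC63 help chains enter the channel after translation and SEC63 recruits the chaperone BiP. SEC62 had intensities of 2022, 1878 and 2312 without enzastaurin and 2156, 2659 and 1263 with it. It was highest on the 6 h and lowest on the 12 h enzastaurin array of all 6, with ratios of 0.093, 0.50 and -0.87, and a dimmer probe set had -0.28, 0.59 and -0.75. SEC63 had -0.29, 0.36 and 0.023. The translocon-associated protein complex, made of SSR1 to SSR4, had members on both sides of 0 at 3 h and 6 h. SSR1 had ratios of -0.31, 0.45 and -0.21, SSR2 0.30, 0.27 and -0.18 and SSR3 0.047, -0.17 and -0.076. All 4 SSR1 probe sets were above 0 at 6 h, from 0.45 to 1.40. At 12 h the dimmer SSR1 probe sets were above 0 too, at 0.18, 0.19 and 0.54, so the lower value there was not seen in them.

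SSR4, another subunit of that complex, had the largest ratio of any member at 3 h, with an unusual value on the control side. Its intensities were 1049, 3539 and 3145 without enzastaurin and 2682, 3205 and 2987 with it. The untreated 3 h array was the lowest by far and the other 5 lay close together, and the ratios were 1.35, -0.14 and -0.074. Its slope of -0.71 did not pass the test (limma adjusted p = 0.0947), except when all probe sets were given equal medians (0.0144). TRAM1, a membrane protein beside the channel, had 3216 to 3363 in untreated cells, the narrowest untreated span of the members in log2 units, and 2901, 4075 and 2848 with enzastaurin. Its dimmer probe sets had 6 h ratios of 1.21 and 1.34, larger than the 0.34 of the brightest.

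Signal peptidase, which cuts the signal from the entering chain, had the lowest median at 12 h of the groups under each of the 4 scalings. Its 4 measured genes had median ratios of -0.044, 0.055 and -0.63, all 4 lay below every untreated array at 12 h (38.3 percent of all genes), and none passed a test. SPCS3 was not below 0 at 12 h under each scaling, so the count of 4 depended on scaling. SPCS1, an accessory subunit, had intensities of 4858, 5294 and 5574 without enzastaurin and 5244, 4264 and 2949 with it. Its treated values at 6 h and 12 h were below all untreated ones, with ratios of 0.11, -0.31 and -0.92 and a mean over these 2 pairs of -0.62 (SE 0.20, n = 2 pairs, limma adjusted p = 0.11). With equal medians of the kept genes this mean was -0.53 and passed (limma adjusted p = 0.0129), with an error from the prior alone. SEC11A, a catalytic subunit whose paralogue SEC11C was not analysed, had intensities of 2224, 1893 and 2543 without enzastaurin and 2471, 2429 and 1291 with it. It was 1.97-fold lower at 12 h, with a ratio of -0.98, and its dimmer probe set had -0.68 there. SPCS2 and SPCS3, the other accessory subunits, had -0.23, -0.16 and -0.34 and -0.20, 0.27 and -0.024.

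COPII genes had the highest median at 6 h, and none of the 12 passed a test. Their median ratios were -0.037, 0.49 and -0.35 (12 h median -0.17 with quantile normalization), 11 of 12 were above 0 at 6 h, 10 of 12 were below 0 at 12 h, and in all 12 the ratio was higher at 6 h than at 12 h. SEC31A, of the outer coat, had intensities of 420.2, 354 and 528 without enzastaurin and 434, 948 and 446 with it. The 6 h enzastaurin array stood alone, 2.68-fold above its control, and the other treated arrays were within the untreated range. A dimmer SEC31A probe set had a 6 h ratio of 0.47. SEC13, its outer coat partner, had ratios of 0.47, -0.26 and -0.62 and was the COPII gene below 0 at 6 h. SEC16A, a scaffold of ER exit sites, had 0.47, 0.041 and -0.77.

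The paralogues of the inner coat all had a higher ratio at 6 h than at 12 h, by different amounts. SEC24D, which selects cargo, had intensities of 678, 374 and 564 without enzastaurin and 781, 741 and 243 with it. It was above all untreated arrays at 3 h and 6 h and below all of them at 12 h, with ratios of 0.20, 0.99 and -1.21, but a probe set near the filter had 0.74 at 12 h. Its relatives had ratios of -0.51, 0.53 and -0.52 for SEC24A, -0.15, 0.30 and -0.12 for SEC24B and 0.20, 0.11 and -0.46 for SEC24C. SEC23A, which partners them, had -0.18, 0.46 and -0.019 and SEC23B -0.035, 0.57 and 0.031. Among the SAR1 GTPases, SAR1B had intensities of 872, 544 and 923 without enzastaurin and 655, 1079.7 and 376 with it. SAR1B was the highest of its 6 arrays at 6 h and the lowest at 12 h under treatment (-0.41, 0.99 and -1.29). The brightest probe set of SAR1A stayed between 919 and 1281 (-0.038, 0.21 and -0.11). Dimmer SAR1A probe sets moved more, with ratios of -0.093, 0.54 and -0.61 and of -0.93, 0.54 and -0.29. Differences between paralogues were not tested.

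SEC22B, a SNARE of vesicles between ER and Golgi, had the lowest ratio of the COPII genes at 3 h and the highest at 6 h and 12 h. Its intensities were 1193, 614 and 751 without enzastaurin and 509.6, 1700.1 and 1162 with it. The treated array was the lowest of the 6 at 3 h and the highest at 6 h, and the untreated arrays differed by 0.96 log2 units among themselves. The ratios were -1.23, 1.47 and 0.63, and the mean over 6 h and 12 h was 1.05 (SE 0.29, n = 2 pairs, limma adjusted p = 0.0581), just short of the threshold. It passed with quantile normalization, equal medians of the kept genes, no intensity filter and the median over probe sets (limma adjusted p from 0.000912 to 0.0278). The error with equal medians of the kept genes or no filter came from the prior alone. Without the intensity trend it did not pass. Nor did it with equal medians of all probe sets, a floor of 16 or the upper 25 percent (limma adjusted p = 0.0796, 0.0590 and 0.0653). In the fit over 3 times the mean was 0.29 (SE 0.42). The RefSeq gene table lists pseudogenes of SEC22B, and whether its probe set also reads them was not tested.

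**Figure D3:**
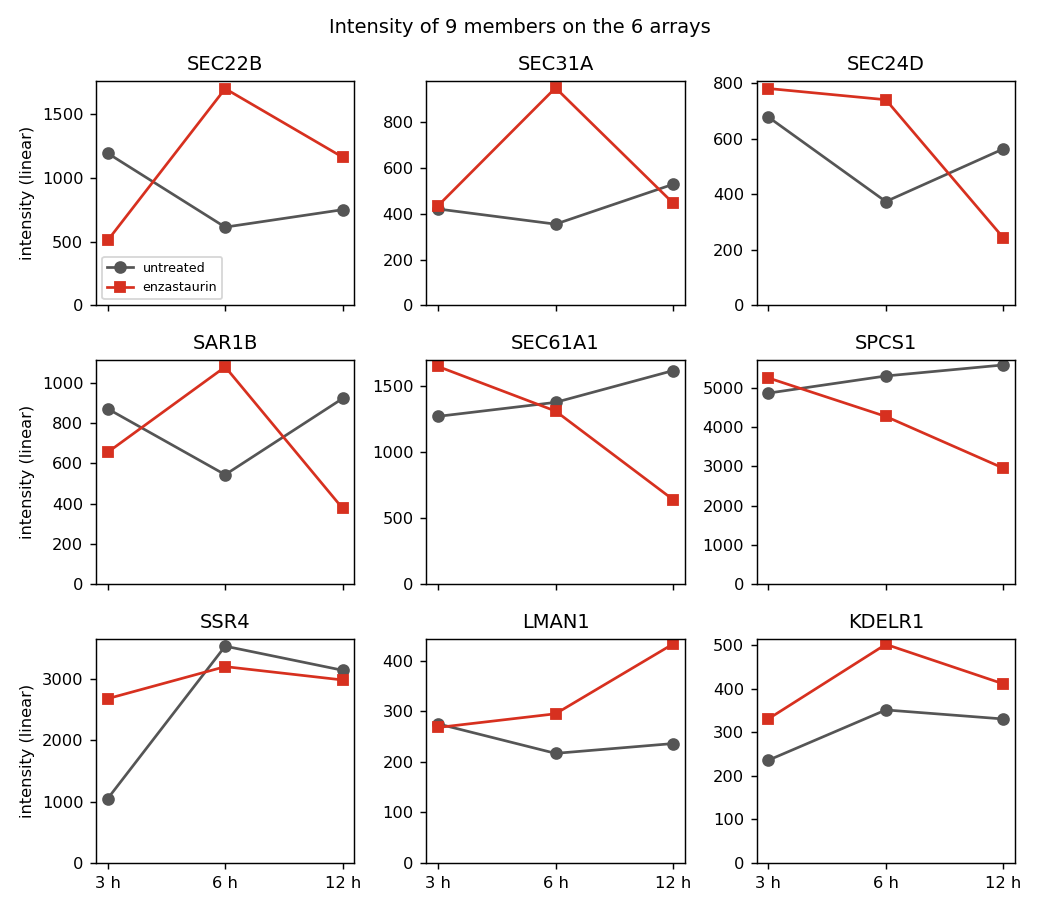
Intensity (vertical axis, linear, from 0) of 9 members at 3, 6 and 12 h, with untreated cells as grey circles and enzastaurin cells as red squares, 1 array each. SEC24D, SAR1B, SEC61A1 and SPCS1 have their lowest value on the 12 h enzastaurin array, SEC22B and SEC31A their highest on the 6 h one, SSR4 is low only in untreated cells at 3 h, and LMAN1 is highest with enzastaurin at 12 h.

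Cargo and retrieval receptors were the one group with a median above 0 at all 3 times under each of the 4 scalings, at 0.27, 0.44 and 0.16, though none of the 5 measured genes passed a test. At 12 h 4 of 5 were above 0 (38.9 percent of all genes), against 3 of the other 33 members. Quantile normalization gave 4 of 5 and 14 of 33, and equal medians of the kept genes 4 of 5 and 13 of 33. LMAN1, MCFD2, KDELR1 and KDELR3 lay above every untreated array at 12 h (24.0 percent of all genes), though KDELR3 was not above 0 under each scaling. LMAN1 and MCFD2 form the receptor that carries clotting factors V and VIII out of the ER. LMAN1 had intensities of 275, 217 and 236 without enzastaurin and 268, 295 and 433 with it. It was highest on the treated 12 h array, 1.83-fold over its control, and its dimmer probe set had ratios of -0.65, 0.62 and 0.96. The mean over 6 h and 12 h was 0.66 (SE 0.33, n = 2 pairs, limma adjusted p = 0.349). MCFD2 had ratios of 0.10, 0.31 and 0.16, but its dimmer probe set had 0.11, -0.20 and -0.046. LMAN2, a related lectin of the early secretory pathway, was below 0 at the later times, at 0.27, -0.24 and -0.40.

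The KDEL receptors return escaped ER chaperones from the Golgi. KDELR1 had intensities of 236, 352 and 331 without enzastaurin and 331, 503 and 412 with it, with ratios of 0.49, 0.51 and 0.31. All 3 ratios were above 0, but the lowest treated value, at 3 h, was inside the untreated range (mean 0.44, SE 0.29, n = 3 pairs, limma adjusted p = 0.98). KDELR3 had intensities of 93.0, 98.3 and 162 without enzastaurin and 147, 138 and 166 with it. Its treated values lay close together and its untreated value was higher at 12 h than before, and the ratio went from 0.66 at 3 h to 0.037 at 12 h.

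**Figure D4:**
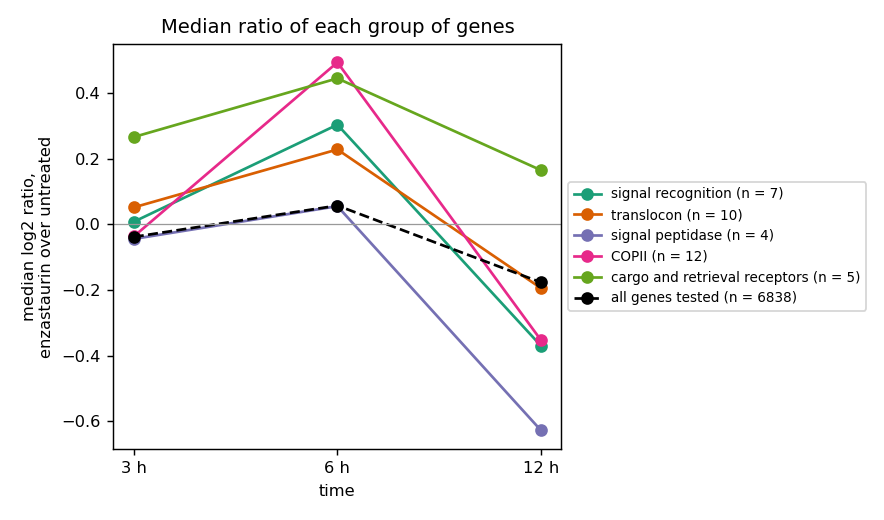
Median log2 ratio of enzastaurin over untreated cells (vertical axis) at 3, 6 and 12 h for the 5 groups of members and, dashed, for all 6838 genes tested. COPII genes are highest at 6 h (0.49), signal peptidase is lowest at 12 h (-0.63), and the receptors are above 0 at each time.

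Many genes had several probe sets, which gives a check on the chosen one. Beside the chosen probe sets, 28 more from 17 members passed the filter. Their ratio had the sign of the chosen one in 23 of 28 at 3 h, 25 of 28 at 6 h and 16 of 28 at 12 h. At 6 h 21 of the 28 were above 0, and at 12 h 16 of 28 were below. The 6 h direction was thus shared more often among probe sets of a gene than the 12 h direction.

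Genes next to this machinery were taken from lists of 96 genes, of which 70 were tested, and none of the 70 passed in any of the 3 fits. The median ratios of the 70 were 0.17, 0.02 and -0.26, and 36 of 70 were above 0 at 6 h. The oligosaccharyltransferase, which adds sugars to chains at the translocon, had medians of 0.17, -0.10 and -0.24 over 7 genes, with DDOST at 0.17, -0.67 and -0.95 and MAGT1 at -0.18, -0.30 and -0.058. The COPI coat and its ARF GTPases, which carry vesicles back to the ER, had 0.30, 0.42 and -0.40 over 12, with ARFGAP3 at 0.32, 1.36 and -0.24 and COPE at 1.06, 0.033 and 0.12. The p24 proteins and other cargo adaptors had -0.03, 0.012 and -0.21 over 13, with TMED9 at 0.049, -0.24 and -1.26 and TMED3 at 0.71, -1.27 and -0.79.

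ER exit factors, tethers and SNAREs had medians of 0.12, 0.068 and -0.19 over 23 genes. PREB, which loads GTP onto SAR1, had intensities of 423, 483 and 619 without enzastaurin and 576, 388 and 165 with it. Its treated 12 h array was the lowest of the 6, and its ratios were 0.45, -0.31 and -1.91 (slope -1.18, SE 0.37, limma adjusted p = 0.0745). TRAPPC3, of a tethering complex, had 0.12, -0.67 and -0.97. The genes of tail-anchor and EMC insertion, other routes into the ER membrane, had medians of 0.19, -0.13 and -0.20 over 15, with NCLN at 0.69, -0.90 and -0.67 and TMCO1 at -0.14, 0.37 and -1.08. The 6 h medians of signal recognition, COPII, COPI and the receptors were each 0.30 or more, and those of the oligosaccharyltransferase and of tail-anchor and EMC insertion were below 0.

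The promoters of the members were searched because XBP1 and ATF6, transcription factors of the unfolded protein response, are known to bind the element TGACGTGG, the core of the UPRE. Windows of 300 bases, 250 before to 50 after each RefSeq start, were found for 37 of the 42 genes. TGACGTGG, on either strand, was present in at least 1 window of 8 of these 37 genes, 21.6 percent. It was present in 1.37 percent of the 5702 tested genes with a window and in 0.729 percent of all 35116 windows. CCAAT followed after 9 bases by CCACG (ERSE), ATTGG followed after 1 base by CCACG (ERSE-II) and TGACGTCA (CRE) were in 0 of 37, against 0.21, 0.21 and 4.33 percent of tested genes. TGATGNAA, the C/EBP-ATF core, was in 2 of 37 (SRPRB and MCFD2), against 2.82 percent. The bases CCACG are part of the UPRE core on its opposite strand and were in 31 of 37, against 57.6 percent. A match is a run of letters and not a bound site.

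The 8 matches are printed with 10 bases on each side, on the gene's own strand in GRCh38.p14, and capitals mark the element, which reads CCACGTCA where it lies on the opposite strand. They are shown for their place and flanking bases, since the search itself fixed the core.
SSR3, chr3:156554149-156554176, minus strand: ctgataacagCCACGTCAgcaaggaaac
SSR4, chrX:153794529-153794556, plus strand: cagggaggggCCACGTCAgtgctgccag
SEC62, chr3:169966780-169966807, plus strand: cctcctcgctCCACGTCAgagggaaccg
SRP19, chr5:112861165-112861192, plus strand: agtcttcatgCCACGTCAgagactagag
SEC23A, chr14:39103222-39103249, minus strand: cccctcctctTGACGTGGcagaggcggc
SEC24A, chr5:134648596-134648623, plus strand: tgagagtcggTGACGTGGcggcgaggcc
SEC16A, chr9:136484708-136484735, minus strand: ggccctggtgCCACGTCAgccggactga
KDELR3, chr22:38468040-38468067, plus strand: gccgccctggCCACGTCAccgcccggcc
The element began 4 to 179 bases before the start in 7 genes and 15 bases after it in SEC16A.

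With or without the element, most ratios were above 0 at 6 h and below 0 at 12 h as the authors scaled the arrays. The 8 genes had median ratios of 0.07, 0.48 and -0.075, and the 26 other measured members with a window had -0.00074, 0.28 and -0.26. At 6 h 6 of the 8 and 20 of the 26 were above 0 (54.4 percent of all genes), and at 12 h 7 and 20 were below (61.1 percent). Of the 8, SEC62, SEC24A and SEC16A alone were below 0 at 12 h under all 4 scalings. XBP1 itself had intensities of 5604, 5010.1 and 5177 without enzastaurin and 5229, 6896 and 6189 with it. Its 6 h and 12 h treated values were above all untreated ones (27.3 and 24.0 percent of all genes). XBP1 did not pass over these 2 pairs (mean log2 ratio 0.36, SE 0.17, limma adjusted p = 0.328). No test was made of either set against the other.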

How the data were processed

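Total RNA of MM.1S cells was labelled with biotin and hybridised to Affymetrix arrays, per the labels' protocols. The deposited table holds intensity on a linear scale, and MAS5 is named per the submitters' processing notes. The sources used here give no MAS5 version, scaling target or detection call, and the number of arrays limits the precision. The authors' scaling was kept. Intensities were floored at 1 and log2 transformed. The filter kept the upper 50 percent of probe sets by mean log2 value (geometric mean 63.3 or more). Of 22277 probe sets 62 were controls, 19064 others had 1 symbol and 1043 had several and were not used. Symbols were updated through Entrez identifiers, which matched RefSeq for 19052. The brightest probe set stood for a gene.

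limma 3.58.1 in R 4.3.3 (lmFit, eBayes with an intensity trend) was fitted to all 6838 genes with the time point as a block, over 3 times, over 6 h and 12 h, and with a slope on log2 hours. Benjamini-Hochberg adjustment ran over all genes, and an adjusted p under 0.05 was called. Moderated standard errors join 2, 1 and 1 residual degrees of freedom to a prior of 9.26, 16.9 and an infinite number. The fits were tested on simulated data. All 42 members could be named, and of the neighbouring lists those past a test or the 2 largest mean ratios of each. Members, lists and tests were chosen with earlier results of these data known. Promoter windows are from RefSeq, GRCh38.p14. Alternatives were scaling, floor, filter, probe set choice, variance prior, no time point, a ribosomal RNA covariate and leaving out each time pair.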

Additional observations from a re-analysis of the deposited data

Results flagged for a closer look

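RRBP1 is listed here because its treatment effect differed between times by the test of the slope. The slope was -1.46 log2 units per doubling of hours (SE 0.36, limma adjusted p = 0.00971), with ratios of 0.057, -1.90 and -2.86 at 3, 6 and 12 h. Of its 4 probe sets above the intensity filter, 3 were below 0 at 12 h and the third by intensity was at 0.23. Its 2 probe sets below the filter were below 0 there too. Each group held 3 arrays, too few to look for a single array far from the others.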

How the results depend on the processing

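Of 1096 values of single members under the alternatives, 1066 were on the same side of the threshold, in the same direction or within their standard error, 3 called values no longer passed (all the RRBP1 slope), 10 passed that had not, 17 values without a call moved to the other side of 0 by at least their standard error and did not pass, and no called value changed sign. The RRBP1 call at 6 h and 12 h held under each setting run for that fit. No paired fit by replicate number was needed, since time is the block. Genes called over 3 times numbered 4, and 1 with all probe sets at equal medians or with no filter, 0 without the intensity trend, 2 without the time point and 74 with the ribosomal RNA covariate, where 1 member, RRBP1, passed. Leaving out a time pair gave 0 to 247 genes and 0 to 1 members: 247 and RRBP1 without the 3 h pair, and 0 in limma without the 6 h or the 12 h pair (169 and 134 at an unadjusted p under 0.05). At 6 h and 12 h, in place of 247 genes, 548 passed with equal medians of the kept genes, 564 with no filter, 150 with the upper 25 percent, 372 with the median over probe sets and 133 without the trend. Members called there were 2 with quantile normalization, no filter or the median over probe sets and 3 with equal medians of the kept genes, in place of 1. In place of 98 slopes, 167 passed with equal medians of all probe sets (4 members), 7 with quantile normalization, 0 with equal medians of the kept genes (675 at an unadjusted p under 0.05 in limma) and 151 with no filter. No member slope passed with quantile normalization, equal medians of the kept genes or the median over probe sets (5, 5 and 6 members at an unadjusted p under 0.05 in limma). Members above 0 at 12 h numbered 4, 18 and 17 under the 3 other scalings, in place of 7. Members whose groups did not overlap numbered 2 of 38 with equal medians of all probe sets, quantile normalization or the median over probe sets, in place of 1. Over all genes, as the authors scaled the arrays, 7.18 percent had the 3 enzastaurin arrays all below and 3.47 percent all above. Fewer genes are tested with the upper 25 percent and fewer arrays in the fits that leave out a pair; for the other changes the cause was not tested. Leaving out a pair leaves the other fits no residual degrees of freedom, so it was run for the fit over 3 times alone.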
